A study of Mus musculus with 18 samples.

Results

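The transcripts of 42 genes of DNA replication and of entry into S phase were followed in cultured smooth muscle cells of the mouse aorta. The genes were chosen by symbol, from a list of replication factors and G1/S regulators, out of 57180 genes in the count table. This list and the other gene lists below were chosen with earlier results of these data known. All 42 passed the filter on low counts, which left 15832 genes for testing. RNA was sequenced from C57BL/6 thoracic aorta cells in 6 groups of 3 libraries. The groups were TGF-β with Itgav siRNA, TGF-β with scramble siRNA, PDGF-BB with Itgav siRNA, PDGF-BB with scramble siRNA, unstimulated cells with Itgav siRNA and unstimulated cells with scramble siRNA. All of them were transfected, so no group shows cells without an siRNA. The sources used here give no dose, no time of stimulation and no siRNA sequence. No label says whether the 3 libraries of a group came from separate cultures or animals. The p-values therefore cover the spread among the libraries, which could be technical.

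Before a cell copies its genome, the origin recognition complex, Cdc6 and Cdt1 load the ring of Mcm2 to Mcm7 onto origins, a step called licensing. Cyclin E with its kinase, Cdc45 and the GINS complex then turn the ring into an active helicase, and primase, polymerases, the Pcna clamp, its loader and replication protein A carry the fork. Many of these genes are transcribed in late G1 under E2F factors. Mature smooth muscle of the vessel wall rarely divides, whereas cells in culture cycle; PDGF-BB is known as a mitogen of these cells and TGF-β as a factor that restrains their growth and raises contractile genes.

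Total counts ran from 17705050 to 21592906 per library. Itgav, the target of the siRNA, encodes integrin αV, and 5.16% of its scramble mean remained with siRNA under TGF-β, 7.13% under PDGF-BB and 4.77% in unstimulated cells. It had 26.1, 29.7 and 25.3 CPM (counts scaled to library size) with siRNA under TGF-β, against 548, 553 and 472 CPM with scramble. Itgav had 19.1, 23.9 and 25.5 CPM with siRNA under PDGF-BB, against 307, 336 and 319 CPM with scramble. Unstimulated cells had 14.8, 14.1 and 16.4 CPM of it with siRNA, against 300.2, 326 and 323 CPM with scramble. Every siRNA library was far below every scramble library of its medium, and TGF-β scramble cells were highest. The 9 smooth muscle markers were detected in every group, with summed levels of 6290.4 to 6388 CPM with siRNA under TGF-β, against 11759.9 to 12105 CPM with scramble. Their sums were 2672 to 2822 CPM in unstimulated siRNA cells, against 4415 to 4681 CPM in unstimulated scramble cells. Under PDGF-BB the sums were 1304 to 1413 CPM with siRNA, against 2214 to 2384 CPM with scramble. These sums were lower with siRNA in each medium and highest in TGF-β scramble cells. The summed level of the 6 mesothelial markers, all detected, was lower with siRNA too, at 25.1 to 30.9 CPM with siRNA under TGF-β, against 62.5 to 64.5 CPM with scramble. In unstimulated cells their sums were 90.5 to 93.2 CPM with siRNA, against 156 to 166 CPM with scramble, and under PDGF-BB 80.9 to 89.3 CPM with siRNA, against 195 to 218 CPM with scramble. Of these 6, 3 fell and 1 rose with siRNA under TGF-β, 4 fell under PDGF-BB and 3 without stimulus. Of all genes tested, 24.3% fell and 24.1% rose with siRNA under TGF-β, 29.9% fell under PDGF-BB and 27.5% without stimulus. The summed endothelial markers ran from 66.4 to 70.7 CPM with siRNA under TGF-β, against 72.1 to 87.3 CPM with scramble. Under PDGF-BB they summed to 77.9 to 96.2 CPM with siRNA, against 101 to 118 CPM with scramble. Without stimulus the sums were 73.1 to 86.4 CPM with siRNA, against 89.1 to 105 CPM with scramble. Of these 8 markers, 2 fell and 1 rose with siRNA under TGF-β, 5 fell under PDGF-BB, and 4 fell and 1 rose without stimulus. Macrophage markers summed to 7.4 to 8.83 CPM in TGF-β scramble cells and 19.9 to 20.5 CPM in PDGF-BB scramble cells, against 14.3 to 17.4 CPM in unstimulated scramble cells. With siRNA they summed to 9.7 to 12.1 CPM under TGF-β, 18.5 to 20.7 CPM under PDGF-BB and 14.1 to 17.1 CPM without stimulus. The macrophage sum was thus lowest with TGF-β and highest with PDGF-BB. The adventitial fibroblast markers summed to 93.8 to 106 CPM in TGF-β scramble cells and 189 to 198 CPM in PDGF-BB scramble cells, against 128 to 134 CPM in unstimulated scramble cells. With siRNA their sums were 100.4 to 109 CPM under TGF-β, 154 to 164 CPM under PDGF-BB and 119 to 125 CPM without stimulus. Their sum was likewise lowest with TGF-β and highest with PDGF-BB. With siRNA without stimulus 5 of the 8 fibroblast markers rose and 1 fell (median log2 fold change 1.01). Of all genes, 25.9% rose and 27.5% fell. The part of these levels in the results on replication genes was not tested. Of 6 lymphocyte markers, Cd3e and Cd3g were at 0 in all libraries and the sum did not exceed 0.351 CPM.

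RefSeq lists a promoter, 250 bases before to 50 after the start site, for 34 of the 42 genes on GRCm38.p6. For 27 of these genes a listed start was within 100 bases of the start of the transcript with the most counts. Whether the remaining windows hold the start used in these cells was not tested. The window was searched on both strands for E2F-like letters (TTTCCCGC, TTTCGCGC, TTTGCCGC or TTTGGCGC), where matches on opposite strands may overlap. They stood in the promoters of 14 of these 34 genes, or 41.2%, and in those of 704 of 27025 genes, or 2.6%, over all promoters of the same length. CCAAT stood in 64.7% of the member genes and 41.1% of all genes, and the cell cycle homology letters TTTGAA or TTCGAA in 17.6% of the member genes and 21.7% of all genes. A match of letters is not a bound site, and no match says only that these letters are not in the window. Shown here are 5 promoters with E2F-like letters whose genes behaved differently in these cells: Mcm5, which fell with TGF-β, and with the siRNA under PDGF-BB and without stimulus, Mcm6, which rose with the siRNA in every medium, Mcm3 and Cdt1, which rose with it under TGF-β, and Msh6, which fell with it in every medium. Capitals mark the E2F-like letters, each sequence runs 5′ to 3′ on the strand of its gene, and positions count from the start site as 0. The Mcm5 window is chr8:75109259-75109558 on the plus strand, with an overlapping pair of matches at -153 and -149. The Mcm6 window is chr1:128359656-128359955 on the minus strand, with 3 matches, of which the pair at -110 and -106 overlaps and the other starts at -47. The Mcm3 window is chr1:20820263-20820562 on the minus strand, with matches at 19 and 38. The Cdt1 window is chr8:122567765-122568064 on the plus strand, with a match at 32, and the Msh6 window is chr17:87974800-87975099 on the plus strand, with a match at 15.
Mcm5: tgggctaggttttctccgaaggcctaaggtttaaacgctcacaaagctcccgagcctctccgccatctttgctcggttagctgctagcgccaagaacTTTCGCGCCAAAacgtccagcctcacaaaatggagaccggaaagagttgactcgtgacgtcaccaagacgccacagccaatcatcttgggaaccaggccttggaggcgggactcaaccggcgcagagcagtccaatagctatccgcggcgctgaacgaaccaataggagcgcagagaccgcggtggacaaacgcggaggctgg
Mcm6: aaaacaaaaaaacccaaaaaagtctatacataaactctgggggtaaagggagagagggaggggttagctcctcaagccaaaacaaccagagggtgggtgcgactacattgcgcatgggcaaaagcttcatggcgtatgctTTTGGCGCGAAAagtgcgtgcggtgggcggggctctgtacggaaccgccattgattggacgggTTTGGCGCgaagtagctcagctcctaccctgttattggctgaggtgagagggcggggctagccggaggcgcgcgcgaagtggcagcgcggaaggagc
Mcm3: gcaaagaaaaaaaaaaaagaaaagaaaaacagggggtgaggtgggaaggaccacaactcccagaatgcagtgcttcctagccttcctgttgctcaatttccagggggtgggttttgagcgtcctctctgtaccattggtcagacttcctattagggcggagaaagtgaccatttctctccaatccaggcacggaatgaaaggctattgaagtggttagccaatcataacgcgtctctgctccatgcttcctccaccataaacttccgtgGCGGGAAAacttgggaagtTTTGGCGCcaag
Cdt1: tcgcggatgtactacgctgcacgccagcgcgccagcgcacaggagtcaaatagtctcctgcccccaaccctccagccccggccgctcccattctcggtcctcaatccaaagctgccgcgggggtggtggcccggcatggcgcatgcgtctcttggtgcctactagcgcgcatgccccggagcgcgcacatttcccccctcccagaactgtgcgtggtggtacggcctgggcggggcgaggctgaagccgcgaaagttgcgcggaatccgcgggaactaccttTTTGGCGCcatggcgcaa
Msh6: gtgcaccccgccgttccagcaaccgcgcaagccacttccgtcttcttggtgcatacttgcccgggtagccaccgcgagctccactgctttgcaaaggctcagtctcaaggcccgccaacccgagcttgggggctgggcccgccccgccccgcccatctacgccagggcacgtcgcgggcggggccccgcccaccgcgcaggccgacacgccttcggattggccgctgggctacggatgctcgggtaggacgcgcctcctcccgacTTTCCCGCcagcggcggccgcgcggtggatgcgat

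TGF-β lowered most of the replication programme of scramble cells. Of the 42 genes, 39 fell and none rose in TGF-β scramble cells against unstimulated scramble cells (edgeR quasi-likelihood test, Benjamini-Hochberg adjusted p under 0.05), while 24.8% of all genes tested fell and 23.4% rose. The median log2 fold change was -0.86 over the 42 genes and -0.0078 over all genes tested. The smallest adjusted p belonged to Rrm1 (8e-14), the large subunit of ribonucleotide reductase, at 124 ± 2.84 CPM with TGF-β and 213 ± 2.9 CPM without it (SD, n = 3 each). Mcm7, Mcm5 and Rpa1 followed, with log2 fold changes of -1.27 ± 0.073, -1.35 ± 0.078 and -0.69 ± 0.042 (± SE). Gins3 at -0.15 ± 0.11, Mcm6 at -0.086 ± 0.074 and Tyms at -0.099 ± 0.085 did not pass. The call of Rpa3 was lost without unstimulated scramble library 3, TGF-β scramble library 1 or TGF-β scramble library 2, at adjusted p of 0.0802, 0.0671 and 0.0644. In bulk RNA, fewer cycling cells and less of these transcripts per cell cannot be told apart.

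**Figure D1:**
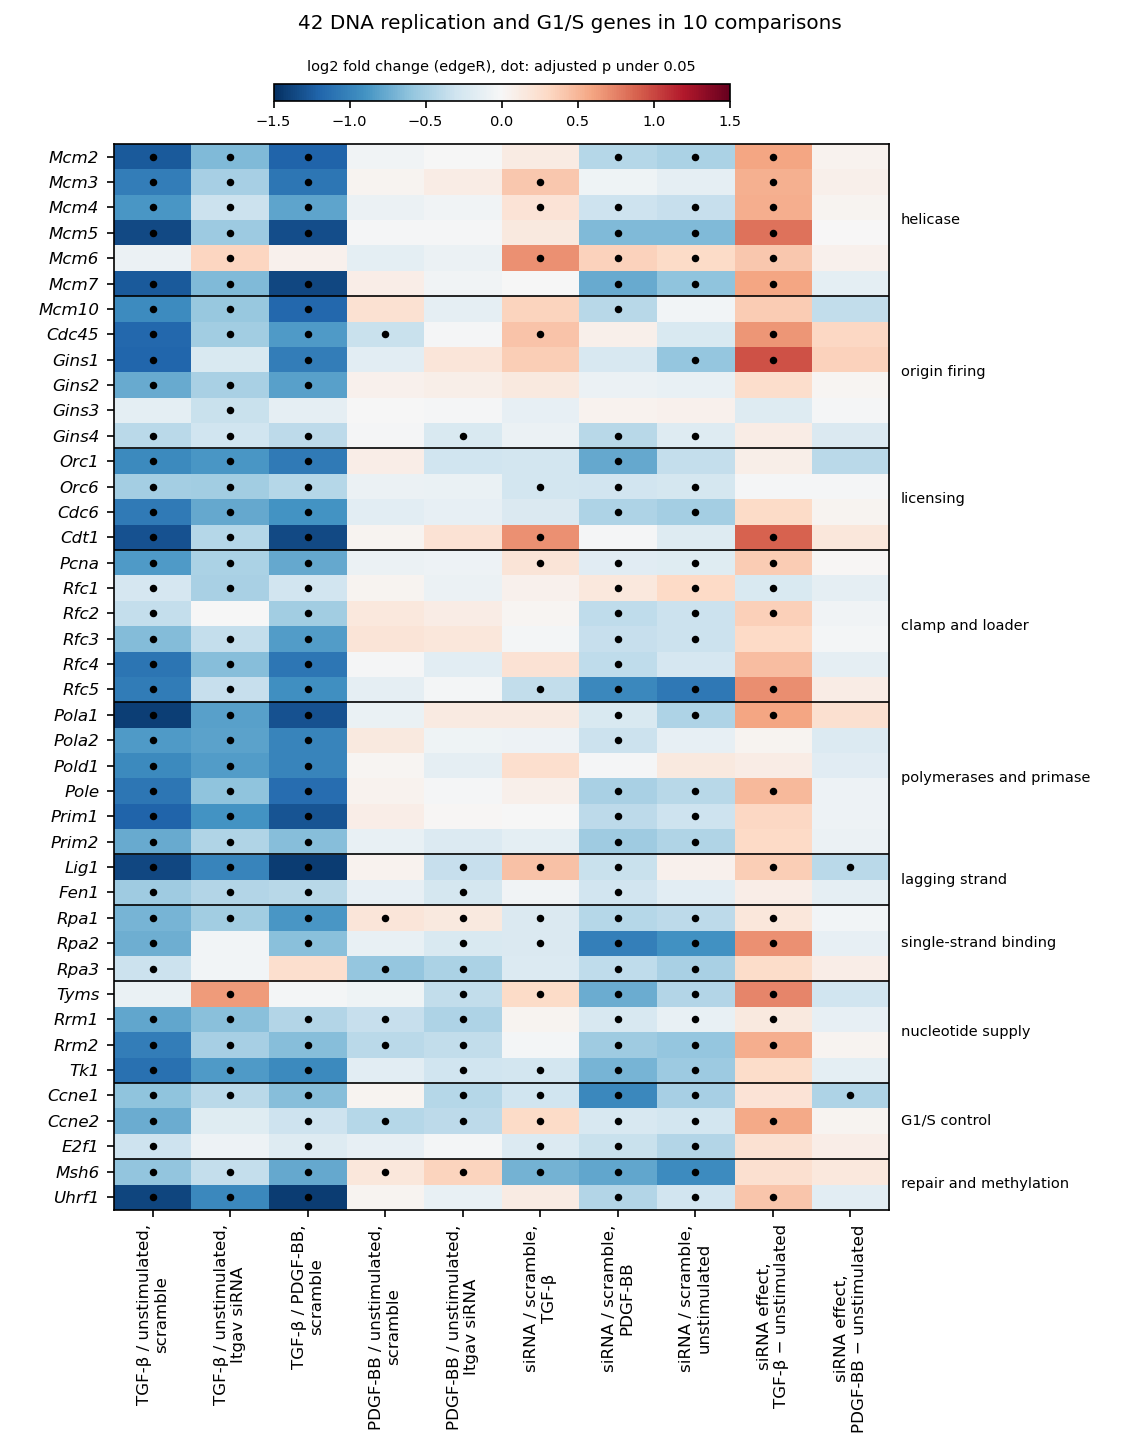
Log2 fold changes (colour, edgeR) of the 42 genes in rows, ordered by role, across 10 comparisons in columns; a black dot marks an adjusted p under 0.05. In the column of TGF-β over no stimulus in scramble cells the Mcm6, Tyms and Gins3 rows have no dot, the PDGF-BB columns are pale, and the siRNA columns are blue under PDGF-BB and without stimulus and mixed under TGF-β.

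PDGF-BB changed few of these transcripts past the threshold in scramble cells. In PDGF-BB scramble cells 2 members rose and 5 fell against unstimulated scramble cells, while 16.9% of all genes rose and 19.2% fell. The median log2 fold change was -0.020 over the members and 0.0062 over all genes. The members that fell were Rrm1 at -0.34 ± 0.036, Rrm2 at -0.41 ± 0.067, Rpa3 at -0.58 ± 0.11, Ccne2 at -0.43 ± 0.092 and Cdc45 at -0.33 ± 0.10, with edgeR adjusted p of 1.4e-07, 5.3e-05, 0.00034, 0.00078 and 0.013. Rpa1 at 0.18 ± 0.040 and Msh6 at 0.17 ± 0.062 rose. The call of Msh6 was lost without unstimulated scramble library 1 (adjusted p 0.157) or PDGF-BB scramble library 2 (0.161), without the low-count filter (0.0507) and in a fit of only these groups (0.0576), and that of Cdc45 without unstimulated scramble library 3 (0.0747). The responses to TGF-β and to PDGF-BB share the unstimulated scramble libraries. Set against each other, TGF-β and PDGF-BB scramble cells differed in 38 members, all of them lower with TGF-β, while 29.0% of all genes were lower and 28.0% higher. Rpa1, Mcm7, Mcm5 and Lig1 had the smallest p there, at -0.87 ± 0.042, -1.36 ± 0.073, -1.33 ± 0.079 and -1.42 ± 0.085. The median was -0.85 over the members and -0.018 over all genes, and Rpa3 at 0.26 ± 0.12, Gins3 at -0.14 ± 0.11, Mcm6 at 0.065 ± 0.074 and Tyms at -0.034 ± 0.086 did not pass. Rpa3 passed as higher without PDGF-BB scramble library 3 (adjusted p 0.0169) and without the low-count filter (0.0432), and E2f1 did not pass without TGF-β scramble library 1 (0.0537) or PDGF-BB scramble library 1 (0.113).

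Silencing Itgav lowered most of the programme in unstimulated cells. With siRNA 28 members fell and 2 rose against scramble, while 27.5% of all genes fell and 25.9% rose, and the median was -0.32 over the members and 0.0079 over all genes. Msh6 at -0.94 ± 0.065, Rpa2 at -0.90 ± 0.082, Rfc5 at -1.07 ± 0.11 and Rpa1 at -0.39 ± 0.041 had the smallest p. The 2 members that rose were Rfc1 at 0.29 ± 0.049 (adjusted p 3e-05) and Mcm6 at 0.28 ± 0.072 (adjusted p 0.0022). Calls lost when 1 library was left out are given with the highest adjusted p. They were those of Gins1 (0.128), Orc6 (0.234) and Rfc3 (0.15) without unstimulated scramble library 1, and of Cdc6 (0.105) and Rrm1 (0.0631) without unstimulated scramble library 2. Without unstimulated siRNA library 1 those of Ccne2 (0.102) and Prim1 (0.0729) were lost, and without unstimulated siRNA library 3 that of Gins4 (0.18). Without the low-count filter Rrm1 (0.0908) and Gins4 (0.0892) did not pass either.

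Under PDGF-BB most members fell with the siRNA as well. Of the members, 33 fell and 2 rose in PDGF-BB siRNA cells against PDGF-BB scramble cells, while 29.9% of all genes fell and 29.4% rose. The median was -0.38 over the members and 0.0094 over all genes. Msh6 at -0.78 ± 0.064, Rpa2 at -1.02 ± 0.083, Mcm7 at -0.76 ± 0.069 and Ccne1 at -0.96 ± 0.091 had the smallest p. Mcm6 at 0.35 ± 0.073 and Rfc1 at 0.16 ± 0.049 rose, the call of Rfc1 being lost without the low-count filter (adjusted p 0.0588). Gins2, Gins1, Mcm3, Cdc45, Gins3, Pold1 and Cdt1 did not pass, at -0.087, -0.24, -0.068, 0.075, 0.049, -0.023 and -0.022. Leaving out PDGF-BB scramble library 2 ended the calls of Ccne2 (0.126), Cdc6 (0.234) and Fen1 (0.0945). Leaving out PDGF-BB siRNA library 2 ended those of Mcm10 (0.0794), Orc6 (0.121) and Rpa3 (0.0888), leaving out library 1 that of Pola1 (0.17), and leaving out library 3 that of Rfc3 (0.0748). The siRNA effect differed from that in unstimulated cells in 2 members, Lig1 at -0.40 ± 0.11 and Ccne1 at -0.47 ± 0.13, where 9.32% of all genes had a lower and 9.51% a higher effect. The median of this difference was -0.031 over the members and -0.012 over all genes. Without unstimulated siRNA library 2 the count was 1, since the adjusted p of Ccne1 was then 0.0501, and without unstimulated siRNA library 3 Cdc45 passed as higher (0.0314).

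Under TGF-β the siRNA raised some members and lowered others. In TGF-β siRNA cells 9 members rose and 8 fell against TGF-β scramble cells, while 24.1% of all genes rose and 24.3% fell, so these shares were near the background. The median was 0.034 over the members and 0.013 over all genes. Those that rose were Mcm6 at 0.69 ± 0.073, Mcm3 at 0.40 ± 0.078, Lig1 at 0.44 ± 0.092, Cdt1 at 0.69 ± 0.19, Cdc45 at 0.43 ± 0.12, Pcna at 0.19 ± 0.054, Tyms at 0.29 ± 0.085, Mcm4 at 0.20 ± 0.060 and Ccne2 at 0.29 ± 0.099. Those that fell were Msh6 at -0.71 ± 0.070, Rpa1 at -0.22 ± 0.043, Ccne1 at -0.30 ± 0.097, E2f1 at -0.20 ± 0.067, Rfc5 at -0.37 ± 0.12, Tk1 at -0.28 ± 0.11, Orc6 at -0.28 ± 0.11 and Rpa2 at -0.22 ± 0.088. The count of members that fell was 5 without TGF-β scramble library 2, and 3 without TGF-β scramble library 3, TGF-β siRNA library 1 or TGF-β siRNA library 2. At its highest, the adjusted p reached 0.187 for Rpa2 (without TGF-β scramble library 3), 0.185 for Orc6, 0.177 for Tk1 and 0.0722 for E2f1 (without TGF-β siRNA library 2), 0.073 for Rfc5 (without TGF-β siRNA library 1) and 0.0713 for Ccne1 (without TGF-β siRNA library 3). Of the members that rose, Mcm4 lost its call without TGF-β scramble library 3 (0.051), and Ccne2 (0.138) and Tyms (0.0631) theirs without TGF-β siRNA library 3.

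Set against its effect in unstimulated cells, the siRNA effect under TGF-β was higher in 22 members and lower in Rfc1 alone (edgeR test of the difference). Of all genes, 12.2% were higher and 11.0% lower. A higher effect means a more positive log2 fold change, be it a larger rise or a smaller fall. Rpa2 fell in both media, and by less under TGF-β, while Mcm6 rose in both. The median difference was 0.37 over the members and 0.0025 over all genes. Mcm5 at 0.81 ± 0.11, Mcm4 at 0.55 ± 0.081, Tyms at 0.73 ± 0.12 and Mcm7 at 0.60 ± 0.10 had the smallest adjusted p, 1.2e-05, 2.7e-05, 0.0001 and 0.00018. Rfc1 differed by -0.23 ± 0.071 (adjusted p 0.023), which did not pass without unstimulated scramble library 1, unstimulated siRNA library 2, TGF-β scramble library 2 or TGF-β siRNA library 1, nor without the low-count filter, at adjusted p of 0.0525 to 0.0771. Among the members with a higher effect, 6 lost the call in several fits that left out 1 library. Their adjusted p reached 0.12 for Gins1 without TGF-β siRNA library 2, 0.0961 for Lig1 and 0.0851 for Rfc2 without TGF-β siRNA library 3, 0.124 for Rpa1 and 0.129 for Rrm1 without unstimulated scramble library 2, and 0.103 for Uhrf1 without TGF-β scramble library 1. With 1 library left out, 16 to 21 members had a higher effect. Without the low-count filter the adjusted p was 0.275 for Rpa1 and 0.311 for Rrm1, and over all alternatives the call was lost in 10 settings for Rpa1 and in 12 for Rrm1.

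**Figure D2:**
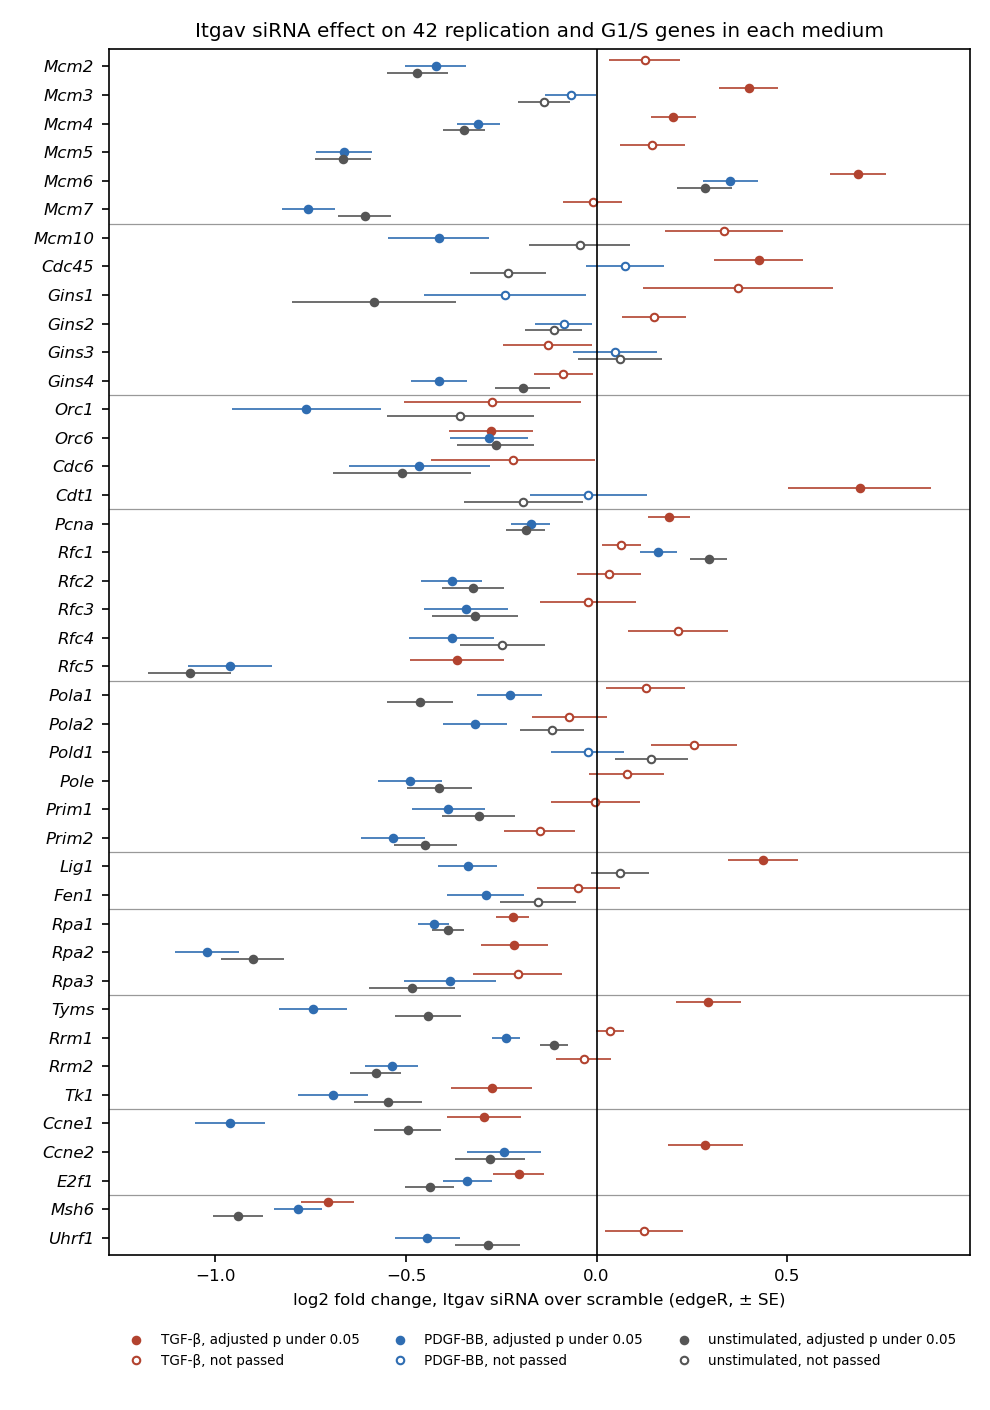
Log2 fold change of Itgav siRNA over scramble (x axis, edgeR, bars ± SE) for each of the 42 genes (y axis, by role) under TGF-β (red), PDGF-BB (blue) and without stimulus (grey); filled points passed an adjusted p under 0.05. Grey and blue points lie mainly left of 0, as for Mcm5 at -0.66 under PDGF-BB and -0.67 without stimulus, and red points scatter on either side of it, from Msh6 at -0.71 to Cdt1 at 0.69.

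TGF-β lowered most of the programme in siRNA cells as well. Of the members, 34 fell and 2 rose in TGF-β siRNA cells against unstimulated siRNA cells, while 29.6% of all genes fell and 27.9% rose. The median was -0.49 over the members and -0.023 over all genes. Rrm1 at -0.63 ± 0.037, Rpa1 at -0.52 ± 0.043, Lig1 at -0.99 ± 0.082 and Uhrf1 at -0.97 ± 0.093 had the smallest p, and Tyms at 0.64 ± 0.087 and Mcm6 at 0.32 ± 0.071 rose. Ccne2, E2f1, Gins1, Rpa2, Rpa3 and Rfc2 did not pass, at -0.18, -0.081, -0.23, -0.043, -0.046 and -0.0051. The call of Cdt1 (0.178) was lost without unstimulated siRNA library 1, that of Rfc5 (0.0737) without TGF-β siRNA library 1 and that of Rfc3 (0.0989) without TGF-β siRNA library 3. PDGF-BB raised 2 members, Msh6 at 0.33 ± 0.067 and Rpa1 at 0.14 ± 0.041, and lowered 11 in siRNA cells, while 17.2% of all genes rose and 19.2% fell. The median was -0.078 over the members and -0.015 over all genes. Those that fell were Rrm1 at -0.47, Rrm2 at -0.36, Ccne1 at -0.43, Lig1 at -0.35, Ccne2 at -0.40, Tyms at -0.37, Rpa3 at -0.48, Tk1 at -0.30, Gins4 at -0.23, Fen1 at -0.27 and Rpa2 at -0.23. Without unstimulated siRNA library 2, or without PDGF-BB siRNA library 3, 7 fell. Rpa1 did not pass without the low-count filter (adjusted p 0.114), nor did Rpa2 (0.13), and neither Rpa2 (0.119) nor Fen1 (0.0684) passed with DESeq2.

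Across the 6 groups, the mean level was highest in unstimulated scramble cells for 21 members and in PDGF-BB scramble cells for 15. It was lowest in TGF-β scramble cells for 20 members and in TGF-β siRNA cells for 17. Mcm6 and Tyms were at their highest in TGF-β siRNA cells, and the remaining 4 members in unstimulated siRNA cells. Per kilobase of transcript, the scale on which genes can be set beside each other, Pcna, Rrm1 and Rrm2 led in unstimulated scramble cells, at 69, 53.9 and 45.7 CPM per kb. Orc1 at 1.48, Mcm10 at 2.58 and Cdc6 at 2.67 CPM per kb stood at the lower end. In TGF-β siRNA cells Pcna at 43.7 and Mcm6 at 38.8 CPM per kb led, and Orc1 was at 0.631.

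Of the 6 subunits of the Mcm2 to Mcm7 ring, 5 fell with TGF-β in scramble cells, while 24.8% of all genes fell. With siRNA in unstimulated cells 4 fell and 1 rose, while 27.5% of all genes fell and 25.9% rose. Mcm2 had 18.8, 20.4 and 21.4 CPM with siRNA under TGF-β, against 17.9, 19.8 and 17.7 CPM with scramble. Under PDGF-BB, Mcm2 had 35.2, 30.5 and 29.9 CPM with siRNA, against 45.4, 44.6 and 38.3 CPM with scramble. Mcm2 in unstimulated cells had 31.9, 35.1 and 29.2 CPM with siRNA, against 45.3, 42.1 and 45.9 CPM with scramble. The siRNA and scramble libraries overlapped under TGF-β and were apart in the other media. Mcm5 had 23.5, 20.1 and 21.3 CPM with siRNA under TGF-β, against 20.2, 19.4 and 19 CPM with scramble. Under PDGF-BB, Mcm5 had 34.8, 27.8 and 30.8 CPM with siRNA, against 50.7, 48.8 and 48.3 CPM with scramble. Mcm5 in unstimulated cells had 31.1, 33.5 and 29.9 CPM with siRNA, against 54, 48 and 47.8 CPM with scramble. Every siRNA library was below every scramble library of its medium under PDGF-BB and without stimulus, while under TGF-β the groups overlapped at the lowest level of all. TGF-β lowered Mcm5 2.56-fold in scramble cells, at -1.35 ± 0.078, and 1.46-fold in siRNA cells, at -0.54 ± 0.080.

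Mcm6 had 116, 113 and 119.7 CPM with siRNA under TGF-β, against 67.9, 76 and 72.3 CPM with scramble. Under PDGF-BB, Mcm6 had 86.4, 98.3 and 78.8 CPM with siRNA, against 74.6, 60.6 and 71.4 CPM with scramble. Mcm6 in unstimulated cells had 95.8, 89.7 and 94.1 CPM with siRNA, against 74.3, 76.3 and 79.2 CPM with scramble. The siRNA libraries were above the scramble libraries in each medium without overlap, by most under TGF-β, where the level was 1.61-fold higher (0.69 ± 0.073, edgeR adjusted p 5.8e-08). The rise with siRNA was larger under TGF-β than in unstimulated cells by 0.40 ± 0.10 (adjusted p 0.006). The gene lies at chr1:128331590-128359664 on the minus strand (GENCODE M21, mm10), and its leading protein-coding transcript held 94.5% of its counts over all libraries. No exon of another annotated gene overlapped it. Mcm3, Mcm4 and Mcm7 fell with TGF-β in scramble cells, at -1.04 ± 0.074, -0.87 ± 0.057 and -1.27 ± 0.073, and with siRNA in unstimulated cells stood at -0.14 ± 0.069 (not passed), -0.35 ± 0.055 and -0.61 ± 0.070. For each of the 6 subunits the log2 fold change with siRNA was more positive under TGF-β than without stimulus. The differences ran from 0.40 for Mcm6 to 0.81 for Mcm5, while 12.2% of all genes were higher. Mcm2, Mcm5 and Mcm7 fell with siRNA without stimulus and did not pass under TGF-β.

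Per kilobase, Mcm6 was the most abundant of the 6 subunits in siRNA cells of each medium and in TGF-β scramble cells, while Mcm7 was so in PDGF-BB and unstimulated scramble cells. It made up 47.4% ± 0.747 of the Mcm2 to Mcm7 total in TGF-β siRNA cells and 38.3% ± 1.34 in TGF-β scramble cells (SD, n = 3 each). With PDGF-BB its share was 32% ± 2.89 with siRNA and 20.7% ± 1.7 with scramble, and without stimulus 33.2% ± 1.58 with siRNA and 22.7% ± 0.791 with scramble. The 3 siRNA libraries were above the 3 scramble libraries in every medium. The Mcm7 share ran the other way, at 14.7% ± 1.33 with siRNA and 19.3% ± 0.35 with scramble under TGF-β, and 20.4% ± 0.746 with siRNA and 25.9% ± 0.722 with scramble without stimulus. These shares were not tested and use transcript lengths weighted by the deposited transcript counts.

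**Figure D3:**
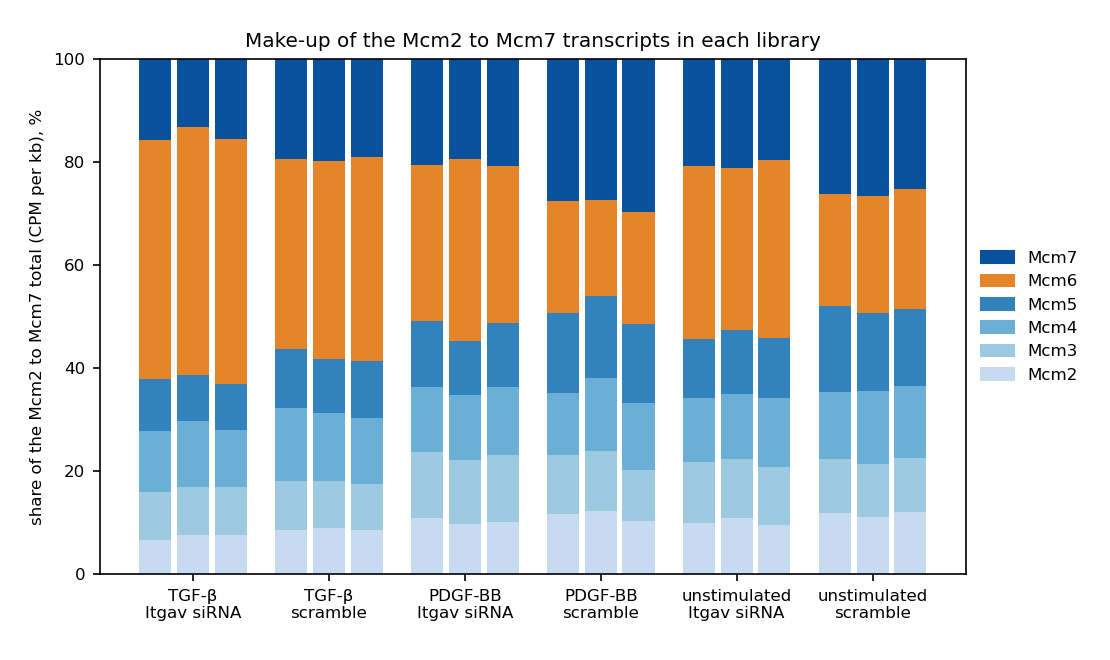
Share of each of Mcm2 to Mcm7 in their summed level (y axis, percent of CPM per kb), as a stacked bar for each of the 18 libraries, grouped by stimulus and siRNA. The Mcm6 band (orange) is widest in the TGF-β siRNA libraries, at 46.6%, 48% and 47.6%, and narrower in the unstimulated scramble libraries, at 21.8%, 22.8% and 23.4%.

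Of the licensing factors 4 of 4 fell with TGF-β in scramble cells, while 24.8% of all genes did. Of the firing factors 5 of 6 fell there, Gins3 being the other. Orc1, the largest subunit of the origin recognition complex, had 1.77, 1.93 and 1.82 CPM with siRNA under TGF-β, against 2.32, 1.67 and 2.72 CPM with scramble. Under PDGF-BB, Orc1 had 2.84, 2.25 and 3.14 CPM with siRNA, against 3.84, 4.79 and 5.27 CPM with scramble. Orc1 in unstimulated cells had 4.08, 3.51 and 2.54 CPM with siRNA, against 4.17, 3.96 and 4.84 CPM with scramble. The siRNA and scramble libraries were apart under PDGF-BB only, where Orc1 fell at -0.76 ± 0.20, while -0.27 ± 0.23 under TGF-β and -0.36 ± 0.19 without stimulus did not pass, nor did the differences between media. Orc6, a smaller subunit, fell with siRNA in every medium, at -0.28 ± 0.11 under TGF-β, -0.28 ± 0.10 under PDGF-BB and -0.26 ± 0.10 without stimulus, calls that were each lost in some fits without 1 library. Of its exon bases 6.93% lie opposite Vps35, which had a mean of 4803 counts per library, against 448 for Orc6. The mean counts of Vps35 were lower with siRNA in each medium too. With the strand of counting not stated, the reads of Orc6 are uncertain. Cdc6, the loading ATPase, had 3.6, 4.14 and 5.13 CPM with siRNA under TGF-β, against 4.12, 6.4 and 4.46 CPM with scramble. Under PDGF-BB, Cdc6 had 5.38, 6.81 and 8.2 CPM with siRNA, against 7.63, 11.8 and 8.69 CPM with scramble. Cdc6 in unstimulated cells had 6.39, 8.33 and 7.31 CPM with siRNA, against 8.98, 11.9 and 10.6 CPM with scramble. Its siRNA and scramble libraries overlapped under TGF-β and PDGF-BB, and with TGF-β it fell 2.09-fold in scramble cells (-1.06 ± 0.19).

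Cdt1, the partner of Cdc6 in loading the helicase, had 4.4, 4.42 and 4.87 CPM with siRNA under TGF-β, against 3.37, 2.63 and 2.49 CPM with scramble. Under PDGF-BB, Cdt1 had 7.97, 5.93 and 7.51 CPM with siRNA, against 6.67, 7.72 and 7.31 CPM with scramble. Cdt1 in unstimulated cells had 7.24, 6.73 and 4.46 CPM with siRNA, against 7.06, 7.61 and 6.39 CPM with scramble. The siRNA libraries stood above the scramble libraries under TGF-β without overlap and overlapped with them in the other media. With TGF-β, Cdt1 fell 2.48-fold in scramble cells (-1.31 ± 0.18), and the siRNA then raised it 1.61-fold (0.69 ± 0.19, edgeR adjusted p 0.004). Gins2, a subunit of GINS, had 17, 15.6 and 18.8 CPM with siRNA under TGF-β, against 15.5, 15.4 and 15.5 CPM with scramble. Under PDGF-BB, Gins2 had 28.3, 25.4 and 23 CPM with siRNA, against 27.5, 25.9 and 28 CPM with scramble. Gins2 in unstimulated cells had 25.2, 23.2 and 23.9 CPM with siRNA, against 25.2, 25.6 and 27.4 CPM with scramble. The siRNA libraries were above scramble under TGF-β and below it without stimulus, by amounts that did not pass (0.15 ± 0.084 and -0.11 ± 0.076), and 67.3% of its exon bases lie opposite Gse1, so with the strand of counting not stated its reads are uncertain. Cdc45 fell with TGF-β in scramble cells (-1.18 ± 0.11) and rose with siRNA under TGF-β (0.43 ± 0.12), to 7.59 ± 0.231 CPM with siRNA, against 5.65 ± 0.188 CPM with scramble. Of its exon bases 5.96% lie opposite Ufd1, which had a mean of 1605 counts per library, against 190 for Cdc45. The reads of Cdc45 are uncertain for the same reason. Mcm10 and Gins1 were lower with TGF-β in scramble cells, at -0.94 ± 0.15 and -1.19 ± 0.23, and Gins4 at -0.40 ± 0.074. Of the 10 comparisons Gins3 passed in 1, TGF-β against unstimulated siRNA cells, with -0.34 ± 0.11 (adjusted p 0.015), a call lost without unstimulated siRNA library 1 (0.0948) or TGF-β siRNA library 2 (0.0517).

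The Pcna clamp and the replication factor C subunits that load it fell with TGF-β in 6 of 6 genes in scramble cells and in 5 of 6 in siRNA cells, where Rfc2 did not pass (-0.0051). Of all genes tested, 24.8% fell with TGF-β in scramble cells and 29.6% in siRNA cells. Pcna had 65, 63.8 and 69.7 CPM with siRNA under TGF-β, against 57.2, 61.4 and 55.4 CPM with scramble. Under PDGF-BB, Pcna had 90.6, 89.3 and 82.4 CPM with siRNA, against 101, 99.6 and 95.3 CPM with scramble. Pcna in unstimulated cells had 93.3, 94.3 and 88.2 CPM with siRNA, against 108, 104 and 101 CPM with scramble. The groups did not overlap in any medium, with siRNA above scramble under TGF-β (0.19 ± 0.054) and below it under PDGF-BB (-0.17 ± 0.051) and without stimulus (-0.19 ± 0.051). Rfc4 had 6.52, 6.68 and 8.08 CPM with siRNA under TGF-β, against 6.03, 5.43 and 6.94 CPM with scramble. Under PDGF-BB, Rfc4 had 10.1, 9.94 and 9.8 CPM with siRNA, against 12.3, 12.4 and 14.1 CPM with scramble. Rfc4 in unstimulated cells had 9.39, 12 and 11.8 CPM with siRNA, against 14.1, 13.6 and 11.7 CPM with scramble. Only the PDGF-BB libraries stood apart, at -0.38 ± 0.11. Of its exon bases 12.7% lie opposite Eif4a2, which had a mean of 10207 counts per library, against 198 for Rfc4. Under PDGF-BB Eif4a2 averaged 8051 counts with siRNA and 9945 with scramble. The reads of Rfc4 are thus uncertain, with the strand of counting not stated. Rfc5 fell 2.1-fold with siRNA in unstimulated cells, to 9.05 ± 0.304 CPM, against 19 ± 1.18 CPM with scramble, and 1.95-fold under PDGF-BB, to 8.91 ± 0.686 CPM, against 17.3 ± 2.95 CPM. Under TGF-β it had 7.09 ± 0.72 CPM with siRNA, against 9.16 ± 0.392 CPM with scramble. The fall there was smaller than without stimulus, with a difference of 0.70 ± 0.17 (edgeR adjusted p 0.0033). The antisense neighbour Wsb2 covers 10.7% of the exon bases of Rfc5 with a mean of 4117 counts, against 232 for Rfc5. Wsb2 averaged 3142 counts with siRNA and 4650 with scramble without stimulus. Under PDGF-BB it averaged 3480 counts with siRNA and 4695 with scramble, and under TGF-β 4022 and 4715. With the strand of counting not stated, the reads of Rfc5 are uncertain. Rfc1, the large subunit, rose with siRNA without stimulus, to 68.1 ± 0.983 CPM, against 55.5 ± 1.65 CPM with scramble, and under PDGF-BB (0.16 ± 0.049), and did not pass under TGF-β (0.065 ± 0.052). Rfc2 and Rfc3 fell with siRNA under PDGF-BB (-0.38 ± 0.079 and -0.34 ± 0.11) and without stimulus (-0.32 ± 0.081 and -0.32 ± 0.11).

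Polymerase and primase genes fell with TGF-β in 6 of 6 cases, in siRNA cells as in scramble cells, where 29.6% and 24.8% of all genes fell. Pola1, the catalytic subunit of polymerase α that starts each strand, had 12.7, 11.8 and 11.6 CPM with siRNA under TGF-β, against 11.5, 12.3 and 9.2 CPM with scramble. Under PDGF-BB, Pola1 had 20.4, 23.1 and 26.4 CPM with siRNA, against 27.2, 27.1 and 27.5 CPM with scramble. Pola1 in unstimulated cells had 21.5, 22 and 20.2 CPM with siRNA, against 29, 29.2 and 29.6 CPM with scramble. It showed the largest log2 fall of the 42 genes with TGF-β in scramble cells, -1.41 ± 0.094, and a siRNA effect of -0.46 ± 0.086 without stimulus, against 0.13 ± 0.10 (not passed) under TGF-β, where the groups overlapped. Pole, the leading-strand polymerase, had 10.2, 10.5 and 11.1 CPM with siRNA under TGF-β, against 11, 9.57 and 9.49 CPM with scramble. Under PDGF-BB, Pole had 15.2, 14.9 and 17.4 CPM with siRNA, against 23.1, 21.7 and 21.6 CPM with scramble. Pole in unstimulated cells had 14.5, 17.3 and 16.2 CPM with siRNA, against 21.6, 22.6 and 19.9 CPM with scramble. Its groups were apart under PDGF-BB and without stimulus. Prim1, the primase catalytic subunit, had 7.03, 7.01 and 6.58 CPM with siRNA under TGF-β, against 6.96, 6.99 and 6.71 CPM with scramble. Under PDGF-BB, Prim1 had 14.5, 11 and 13.4 CPM with siRNA, against 16.2, 17 and 17.6 CPM with scramble. Prim1 in unstimulated cells had 11.1, 13.5 and 13.8 CPM with siRNA, against 16.6, 15.6 and 15.4 CPM with scramble. The 6 TGF-β libraries lay between 6.58 and 7.03 CPM, and the siRNA effect there was -0.0040 ± 0.12, with a 95% interval of -0.23 to 0.22. Prim2 fell with siRNA under PDGF-BB (-0.53 ± 0.085) and without stimulus (-0.45 ± 0.083), Pola2 under PDGF-BB (-0.32 ± 0.083), and no siRNA effect on Pold1, the lagging-strand polymerase, passed.

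Both lagging-strand enzymes fell with TGF-β in scramble cells and with siRNA under PDGF-BB, where 24.8% and 29.9% of all genes fell. Fen1, the nuclease that trims flaps, had 12.1, 12 and 14 CPM with siRNA under TGF-β, against 12.9, 14.1 and 12.4 CPM with scramble. Under PDGF-BB, Fen1 had 15.6, 13.7 and 13.5 CPM with siRNA, against 16.7, 19.2 and 16.6 CPM with scramble. Fen1 in unstimulated cells had 14.4, 19.7 and 17.4 CPM with siRNA, against 19.7, 18.1 and 19.6 CPM with scramble. It passed with siRNA under PDGF-BB (-0.29 ± 0.10) and overlapped elsewhere. The antisense Gm10143 covers 78.8% of its exon bases with a mean of 4.92 counts per library. Tmem258, also antisense, covers 5.37% of them with a mean of 812 counts, against 306 for Fen1. Under PDGF-BB Tmem258 averaged 621 counts with siRNA and 970 with scramble. With the strand of counting not stated, the reads of Fen1 are uncertain. Lig1, the ligase that seals the fragments, was at 19.4 ± 2.2 CPM with siRNA and 14.4 ± 0.81 CPM with scramble under TGF-β (SD, n = 3 each). It was at 30.5 ± 1.86 CPM with siRNA and 38.5 ± 0.709 CPM with scramble under PDGF-BB, and at 38.7 ± 3.89 CPM with siRNA and 37.1 ± 1.93 CPM with scramble without stimulus. It rose with siRNA under TGF-β (0.44 ± 0.092), fell under PDGF-BB (-0.34 ± 0.077) and did not pass without stimulus (0.062 ± 0.076), and the difference from unstimulated cells passed for TGF-β (0.37 ± 0.12) and PDGF-BB (-0.40 ± 0.11). Its fall with TGF-β was -1.37 ± 0.085 in scramble cells and -0.99 ± 0.082 in siRNA cells.

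Replication protein A, which coats single-stranded DNA, fell with siRNA in each of its 3 subunits under PDGF-BB and without stimulus. In these comparisons 29.9% and 27.5% of all genes fell. Rpa2 had 11.9, 12.1 and 10.8 CPM with siRNA under TGF-β, against 12.4, 13.5 and 14.5 CPM with scramble. Under PDGF-BB, Rpa2 had 10.8, 10.03 and 9.85 CPM with siRNA, against 22.1, 19.3 and 21 CPM with scramble. Rpa2 in unstimulated cells had 11.7, 12 and 12.2 CPM with siRNA, against 23.3, 23.2 and 20.6 CPM with scramble. The scramble libraries of PDGF-BB and unstimulated cells stood well above all others, and Rpa2 fell 2.03-fold with siRNA under PDGF-BB and 1.87-fold without stimulus. Under TGF-β the effect was -0.22 ± 0.088, which edgeR passed (adjusted p 0.048) but DESeq2 did not (0.0994), and which was lost without the low-count filter (0.133), in the other alternatives with all replicates (0.0519 to 0.0788) and without TGF-β scramble library 2 or 3 or any 1 of the TGF-β siRNA libraries. Set against unstimulated cells, the fall under TGF-β was smaller by 0.69 ± 0.12 (edgeR adjusted p 0.00018). Rpa1 had its highest level in PDGF-BB scramble cells, 122 ± 4.31 CPM, and fell with siRNA to 90.4 ± 1.24 CPM there. Rpa3 was lower in both PDGF-BB groups than in unstimulated cells of the same siRNA, at -0.58 ± 0.11 with scramble and -0.48 ± 0.12 with Itgav siRNA. Per kilobase, Rpa1 made up 58.7% ± 3.7 of the 3 subunits in PDGF-BB siRNA cells and 56% ± 1.74 in PDGF-BB scramble cells, and 40.7% ± 2.09 in TGF-β siRNA cells and 40.9% ± 1.82 in TGF-β scramble cells.

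Of the 4 genes that supply deoxynucleotides, 3 fell with TGF-β in scramble cells and Tyms did not pass, while 24.8% of all genes fell. Tyms, thymidylate synthase, had 31.3, 28.8 and 35.1 CPM with siRNA under TGF-β, against 27.2, 25.8 and 24.7 CPM with scramble. Under PDGF-BB, Tyms had 18, 14.9 and 14.5 CPM with siRNA, against 27.3, 25.2 and 27 CPM with scramble. Tyms in unstimulated cells had 20.4, 19.98 and 20.9 CPM with siRNA, against 30.7, 25.9 and 26.4 CPM with scramble. The 3 scramble groups overlapped, and the siRNA libraries were above the scramble libraries of their own medium under TGF-β and below them in the other media. Its siRNA effect was 0.29 ± 0.085 under TGF-β, -0.74 ± 0.089 under PDGF-BB and -0.44 ± 0.087 without stimulus, and the effect under TGF-β exceeded that without stimulus by 0.73 ± 0.12 (edgeR adjusted p 0.0001). The rise under TGF-β did not pass without TGF-β siRNA library 3 (0.0631). Rrm2, the small subunit of ribonucleotide reductase, had 50.9, 49 and 41.7 CPM with siRNA under TGF-β, against 50.8, 47.2 and 46.9 CPM with scramble. Under PDGF-BB, Rrm2 had 55.6, 47.8 and 51.9 CPM with siRNA, against 74.1, 74.7 and 76.5 CPM with scramble. Rrm2 in unstimulated cells had 66.2, 72.2 and 61.3 CPM with siRNA, against 98.8, 96.6 and 103 CPM with scramble. Unstimulated scramble cells were highest, and the siRNA and scramble libraries overlapped under TGF-β alone, where the effect was -0.034 ± 0.073 (not passed). Tk1, the thymidine kinase of the salvage route, had 8.69, 8.17 and 10.8 CPM with siRNA under TGF-β, against 10.2, 11.6 and 11.7 CPM with scramble. Under PDGF-BB, Tk1 had 14.4, 13 and 12.9 CPM with siRNA, against 22.9, 21.3 and 21 CPM with scramble. Tk1 in unstimulated cells had 16.7, 17.9 and 15.2 CPM with siRNA, against 24.2, 23.1 and 25.5 CPM with scramble. Its groups overlapped under TGF-β only, and it fell with siRNA at -0.69 ± 0.092 under PDGF-BB and -0.55 ± 0.089 without stimulus. Rrm1 fell with either stimulus, to 124 ± 2.84 CPM with TGF-β and 168 ± 2.16 CPM with PDGF-BB in scramble cells, against 213 ± 2.9 CPM without stimulus.

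The G1/S regulators fell with TGF-β in scramble cells and with siRNA in unstimulated cells, in 3 of 3 genes each time. In these comparisons 24.8% and 27.5% of all genes fell. Ccne1, an activating cyclin of Cdk2, had 13.8, 12.9 and 12 CPM with siRNA under TGF-β, against 15.8, 15.1 and 16.7 CPM with scramble. Under PDGF-BB, Ccne1 had 14.2, 12.7 and 11.2 CPM with siRNA, against 25.8, 24.7 and 23.9 CPM with scramble. Ccne1 in unstimulated cells had 17.3, 19 and 15 CPM with siRNA, against 22.8, 24.9 and 24.6 CPM with scramble. The groups were apart in each medium, and the fall was largest under PDGF-BB, 1.95-fold, against 1.41-fold without stimulus. Ccne2, its close relative, had 18, 20.1 and 22.5 CPM with siRNA under TGF-β, against 16.8, 16.9 and 16 CPM with scramble. Under PDGF-BB, Ccne2 had 16.4, 17.3 and 18.3 CPM with siRNA, against 19, 21.9 and 20.6 CPM with scramble. Ccne2 in unstimulated cells had 19.7, 25.5 and 23.2 CPM with siRNA, against 25.5, 30.2 and 27.5 CPM with scramble. Under TGF-β the siRNA thus raised Ccne2 (0.29 ± 0.099) and lowered Ccne1 (-0.30 ± 0.097), calls that were both lost without TGF-β scramble library 3 (0.0634 for Ccne2 and 0.0604 for Ccne1). Of the exon bases of Ccne2, 17.4% lie opposite Ints8, so with the strand of counting not stated its reads are uncertain. E2f1, the activating E2F factor, had 24.8, 24.2 and 27.2 CPM with siRNA under TGF-β, against 28.8, 29.3 and 29.7 CPM with scramble. Under PDGF-BB, E2f1 had 27.1, 26.8 and 25.1 CPM with siRNA, against 36.2, 30.6 and 33.2 CPM with scramble. E2f1 in unstimulated cells had 27.5, 25.9 and 27.3 CPM with siRNA, against 36.9, 35.4 and 36.9 CPM with scramble. Its siRNA libraries were below scramble in each medium, at -0.20 ± 0.067 under TGF-β, -0.34 ± 0.064 under PDGF-BB and -0.44 ± 0.064 without stimulus.

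Msh6, which recognises mismatches left behind the fork, fell with the siRNA in each medium. Msh6 had 25, 24.6 and 24.6 CPM with siRNA under TGF-β, against 40.7, 42.5 and 37.8 CPM with scramble. Under PDGF-BB, Msh6 had 37.3, 40.4 and 42 CPM with siRNA, against 66, 73.9 and 66.1 CPM with scramble. Msh6 in unstimulated cells had 33.8, 30.7 and 30.6 CPM with siRNA, against 56.5, 63 and 62.9 CPM with scramble. No siRNA library reached a scramble library of its own medium, and the falls of 1.63-fold under TGF-β, 1.72-fold under PDGF-BB and 1.92-fold without stimulus passed in every fit that left out 1 library. The difference between the effect under TGF-β and that without stimulus, 0.23 ± 0.096, did not pass (adjusted p 0.084, 95% interval 0.047 to 0.42). Uhrf1, which brings Dnmt1 to newly copied DNA, had 15.8, 13.2 and 16.2 CPM with siRNA under TGF-β, against 11.5, 14.4 and 15.5 CPM with scramble. Under PDGF-BB, Uhrf1 had 28.7, 26.4 and 26.7 CPM with siRNA, against 37.9, 36.7 and 36.8 CPM with scramble. Uhrf1 in unstimulated cells had 28, 32.6 and 27.8 CPM with siRNA, against 37.9, 33.7 and 36.1 CPM with scramble. Its TGF-β groups overlapped and its other groups did not, and with TGF-β in scramble cells it fell 2.6-fold.

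**Figure D4:**
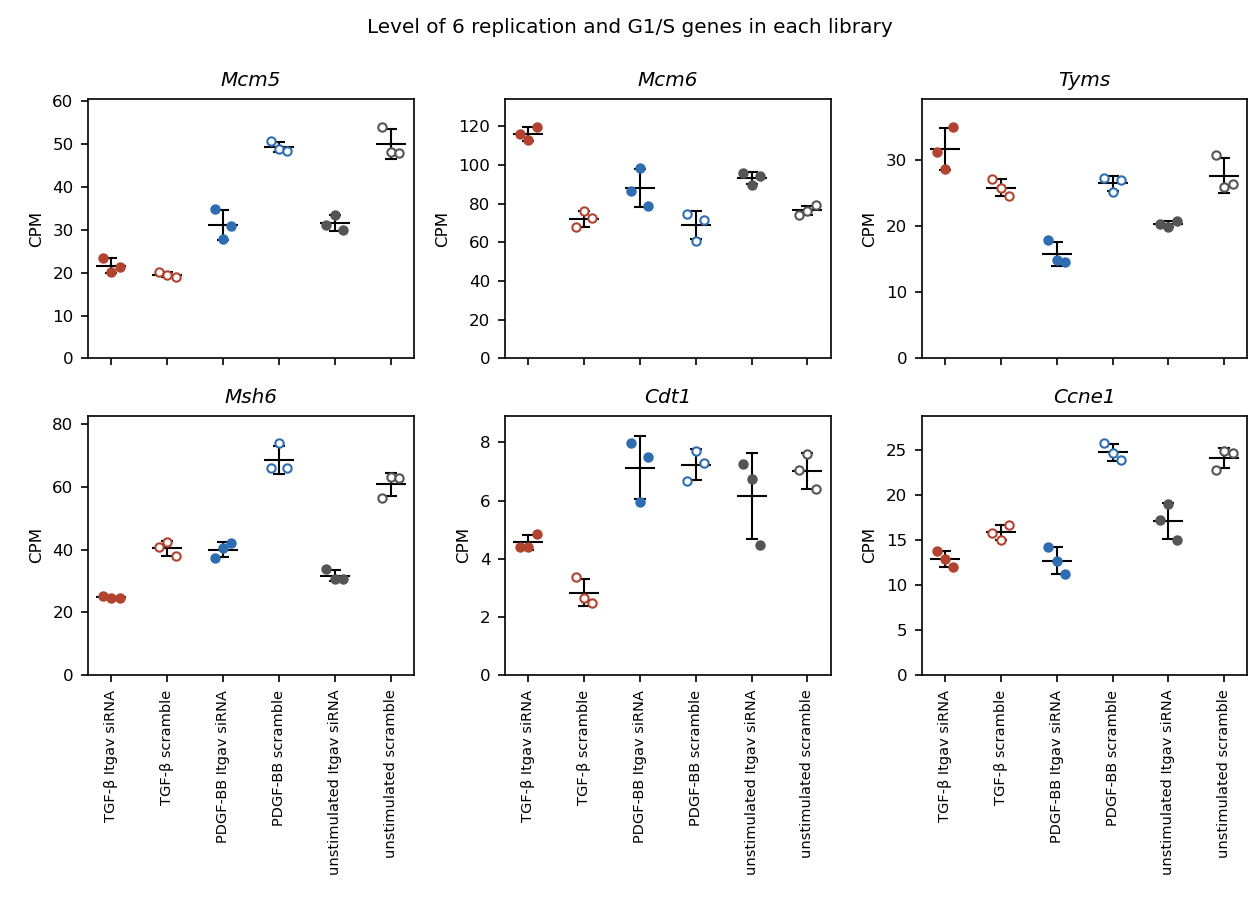
Level (CPM, y axis from 0) of Mcm5, Mcm6, Tyms, Msh6, Cdt1 and Ccne1 in each of the 18 libraries (points; filled for Itgav siRNA, open for scramble), with the mean and SD of each group of 3 (bars). Msh6 and Ccne1 are lower with siRNA in each medium, Mcm6 is higher, and Tyms and Cdt1 are higher with siRNA under TGF-β, where Tyms averaged 31.7 ± 3.19 CPM, against 25.9 ± 1.28 CPM with scramble.

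Most of the other listed genes of the same process fell with TGF-β too. Of 52 further replication and G1/S genes, 38 fell and 2 rose with TGF-β in scramble cells (median -0.52), while 24.8% of all genes fell and 23.4% rose, with Dnmt1, the maintenance DNA methyltransferase, at -0.87 ± 0.059 and Clspn, the checkpoint adaptor claspin, at -1.27 ± 0.092. With siRNA in unstimulated cells 23 fell and 4 rose (median -0.26), while 27.5% of all genes fell and 25.9% rose, led by Dut, which removes dUTP, at -0.91 ± 0.083, Pole3 at -0.62 ± 0.057 and Dck at -0.89 ± 0.087. Under PDGF-BB the siRNA lowered 27 and raised 4, while 29.9% of all genes fell and 29.4% rose. Under TGF-β it lowered 10 and raised 8, shares below the 24.3% and 24.1% of all genes, and among those raised were Chaf1b, of the chromatin assembly factor, at 0.83 ± 0.13, and Dbf4, the activator of the Cdc7 kinase, at 0.49 ± 0.079. The siRNA effect under TGF-β was higher than without stimulus in 12 of the 52 genes and lower in none of them, while 12.2% of all genes were higher and 11.0% lower, with Dut at 1.13 ± 0.12. Dut had 19.6, 21.5 and 23 CPM with siRNA under TGF-β, against 17.3, 19.4 and 18.5 CPM with scramble. Without stimulus Dut had 12.4, 13.3 and 12.5 CPM with siRNA, against 25.1, 23 and 24.1 CPM with scramble. Its siRNA libraries were above scramble under TGF-β and below it without stimulus, as were those of Tyms, which methylates the product of Dut.

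Genes of G2 and mitosis, the later phases of the cycle, also fell with TGF-β. With TGF-β in scramble cells 24 of 24 fell (median -1.29), while 24.8% of all genes did, with Cdc20, an activator of the anaphase-promoting complex, at -1.75 ± 0.073 and the proliferation marker Mki67 at -1.44 ± 0.070. With siRNA 21 fell in unstimulated cells (median -0.48) and 19 under PDGF-BB (median -0.36), and under TGF-β 4 fell and 2 rose (median 0.015). Over all genes 27.5% fell in unstimulated cells and 29.9% under PDGF-BB, and under TGF-β 24.3% fell and 24.1% rose. The siRNA effect under TGF-β was higher than without stimulus in 15 of 24, and in 12.2% of all genes. With PDGF-BB in scramble cells 21 of the 24 fell (median -0.31), among them Cdk1 at -0.50 ± 0.057, Ccna2 at -0.41 ± 0.062 and Top2a at -0.51 ± 0.083, where 5 of the 42 replication and G1/S genes and 19.2% of all genes did.

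Transcripts of the D-type cyclins, which carry growth signals into G1, fell with siRNA in every medium. Ccnd1 had 324, 329 and 319.9 CPM with siRNA under TGF-β, against 873, 852 and 819.95 CPM with scramble. Under PDGF-BB, Ccnd1 had 2201, 2369.7 and 2299 CPM with siRNA, against 3668, 3906 and 3719 CPM with scramble. Ccnd1 in unstimulated cells had 1371, 1406 and 1332 CPM with siRNA, against 2322, 2326 and 2339 CPM with scramble. Every siRNA library was below every scramble library of its medium. The siRNA effect under TGF-β, -1.39 ± 0.036, differed from the -0.77 ± 0.035 without stimulus by -0.62 ± 0.050 (edgeR adjusted p 6.1e-09). In that difference 22 of the 42 replication genes and 12.2% of all genes passed as higher. Ccnd2 fell with siRNA at -1.42 ± 0.049 under TGF-β, -1.65 ± 0.049 under PDGF-BB and -1.49 ± 0.049 without stimulus. For Ccnd3 the values were -0.88 ± 0.070 under TGF-β, -1.26 ± 0.069 under PDGF-BB and -0.71 ± 0.067 without stimulus, all past the threshold. PDGF-BB raised Ccnd1 by 0.69 ± 0.035 and Ccnd2 by 0.37 ± 0.048 in scramble cells, where the median of the 42 genes was -0.020. Of the 6 genes that drive G1, 5 fell and none rose with TGF-β in scramble cells, while 24.8% of all genes fell and 23.4% rose. With siRNA 5 of these 6 fell and 1 rose under TGF-β, 5 fell under PDGF-BB, and 3 fell and 1 rose without stimulus. Over all genes 24.3% fell and 24.1% rose under TGF-β, 29.9% fell under PDGF-BB, and 27.5% fell and 25.9% rose without stimulus.

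Of the 13 genes that hold back G1/S, 6 fell and 1 rose with TGF-β in scramble cells, while 24.8% of all genes fell and 23.4% rose. The one that rose was Cdkn2b, the p15 inhibitor and a known TGF-β target, at 59.4, 62.5 and 63.8 CPM with TGF-β, against 42.9, 36.5 and 40.7 CPM without stimulus (0.63 ± 0.062). In siRNA cells it had 60.6, 57.8 and 55.8 CPM with TGF-β, against 41.6, 37.9 and 39.1 CPM without (0.55 ± 0.062). Between these media the siRNA effect on Cdkn2b differed by -0.075 ± 0.088 (not passed, 95% interval -0.25 to 0.097). PDGF-BB raised it as well in scramble cells (0.40 ± 0.062). With siRNA 4 of the 13 rose and 5 fell in unstimulated cells, shares near the 25.9% and 27.5% of all genes, with E2f5, a repressing E2F factor, at -1.46 ± 0.086 and the retinoblastoma gene Rb1 at -0.79 ± 0.059. Under TGF-β 2 of the 13 rose and 5 fell with siRNA, while 24.1% of all genes rose and 24.3% fell. There E2f5 had 9.86 ± 0.472 CPM with siRNA, against 22.7 ± 0.951 CPM with scramble. Rb1 had 54.3 ± 2.33 CPM with siRNA under TGF-β, against 88.6 ± 4.28 CPM with scramble. Cdkn1a, the p21 inhibitor, was lower with siRNA under TGF-β, at -0.33 ± 0.039, and did not pass with TGF-β in scramble cells (-0.051 ± 0.039).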

How the data were processed

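RNA-seq libraries of mouse aortic smooth muscle cells were compared at the level of genes. The authors deposited estimated counts per gene and per transcript, and per the submitters' processing notes HISAT2 2.2.1, StringTie 2.1.6 and the mm10 build were used. The sources used here name neither the annotation release nor a strand setting for the counting, which leaves counts of antisense neighbours uncertain. Of the values above 0, 76.2% were whole numbers; the estimated counts were rounded to whole numbers before testing.

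Genes were kept by filterByExpr with a minimum count of 10, scaled by TMM and fitted with edgeR 4.0.16 (glmQLFit and glmQLFTest, R 4.3.3) over all 6 groups, with 12 residual degrees of freedom and Benjamini-Hochberg adjustment over all genes tested at 0.05. The standard error is the size of the log2 fold change divided by the square root of F. CPM use the TMM-scaled totals, and CPM per kb divide by the mean transcript length in GENCODE M21, weighted by the deposited transcript counts. Total counts of 17705050 to 21592906 per library gave the members mean counts of 62.8 to 3170. The size of a count bears on counting error only, while the tests also use the spread among libraries. Responses to TGF-β or PDGF-BB, siRNA effects and the differences of siRNA effects were tested by contrasts, and the step was tested on simulated data. DESeq2 1.42.0, other filters and scalings, the replicate block and leaving out each library were tried as alternatives. Tables and plots were made with Python 3.11.15, pandas 2.3.3, numpy 2.4.6 and matplotlib 3.10.9.

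The members and the other gene lists were chosen with earlier results of these data known. Values per library are given for 22 members picked to cover each role. Per comparison the text also names the 4 members with the smallest p, each called member on the side with fewer calls, and the members that did not pass where they were 8 or fewer. From each other list it names up to 3 genes with the smallest p, the other members are named so that each is described, and any further gene was chosen after its values were seen. One gene that this rule names is not reported here. Promoter sequences came from RefSeq on GRCm38.p6.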

Additional observations from a re-analysis of the deposited data

Results flagged for a closer look

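For 22 of the 42 genes the effect of Itgav siRNA was higher under TGF-β than in unstimulated cells, and for Rfc1 it was lower, by edgeR's quasi-likelihood test of the difference itself (adjusted p under 0.05). Of all genes tested, 12.2% were higher and 11.0% lower. Values are log2 differences, TGF-β minus unstimulated, so a positive value can reflect a smaller fall as well as a larger rise. In the helicase they were 0.60 for Mcm2, 0.54 for Mcm3, 0.55 for Mcm4, 0.81 for Mcm5, 0.40 for Mcm6 and 0.60 for Mcm7. Among licensing and firing factors they were 0.88 for Cdt1, 0.66 for Cdc45 and 0.96 for Gins1. At the fork, Pcna differed by 0.38, Rfc1 by -0.23, Rfc2 by 0.36, Rfc5 by 0.70, Pola1 by 0.59, Pole by 0.49, Lig1 by 0.37, Rpa1 by 0.17 and Rpa2 by 0.69. Tyms differed by 0.73, Rrm1 by 0.15, Rrm2 by 0.55, Ccne2 by 0.57 and Uhrf1 by 0.41. The values of Rpa1 and Rrm1 did not pass without the low-count filter (adjusted p 0.275 and 0.311). For PDGF-BB minus unstimulated the same test passed for Lig1 at -0.40 and Ccne1 at -0.47, while 9.32% of all genes were lower and 9.51% higher. The unstimulated libraries serve in both sets of differences. Among these genes, Mcm6, Tyms, Cdt1, Ccne2, Mcm3, Mcm4, Cdc45, Pcna and Lig1 also rose with siRNA within TGF-β.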

How the results depend on the processing

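No member changed direction among those called, under any alternative. Over 420 pairs of member and comparison, 417 kept their side of the threshold with DESeq2 and with DESeq2 size factors, 416 with a mean of at least 1 CPM, 413 with only the groups compared and 407 without the filter on low counts; leaving out 1 library kept 2852 of 3024. Same-numbered libraries of different groups deviated from their group means with correlations of -0.0878 to 0.0966 over all genes tested, none of 45 above 0.1. Over the members these correlations ran from -0.382 to 0.519 (median 0.0608). For pairs with different numbers they ran from -0.633 to 0.483 (median -0.0154). No label says whether libraries were paired, and these values cannot decide it. With the replicate block 416 of 420 kept their side, and the siRNA lowered 29 members without stimulus, against 28 without the block. The other counts of members called moved by no more than 2 with the block.

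Without the filter on low counts 1 member was higher with PDGF-BB in scramble cells, 1 with siRNA under PDGF-BB, 1 with PDGF-BB in siRNA cells and 1 with TGF-β against PDGF-BB, and 0 had a lower siRNA effect under TGF-β than without stimulus. With only the groups compared 1 member was higher with PDGF-BB in scramble cells. Leaving out 1 library gave 1 to 2 members higher with PDGF-BB in scramble cells, 3 to 7 lower with siRNA under TGF-β, 7 to 11 lower with PDGF-BB in siRNA cells and 0 to 1 higher with TGF-β against PDGF-BB. For the differences of the siRNA effect it gave 16 to 21 higher and 0 to 1 lower for TGF-β, where all libraries gave 22 and 1, and 0 to 1 higher and 1 to 3 lower for PDGF-BB. Fewer libraries or more genes entered those fits, and the cause of these shifts was not tested. Counts of 30 or more per member and library leave the Poisson error of the least abundant members, such as Gins1 and Orc1, larger than that of Pcna or Rrm1.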
